A study of Homo sapiens with 8 samples.

Results

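The genes described are the interleukin-1β gene IL1B and the TNF gene, with genes that process, oppose or respond to their products: IL1RN, IL18, NLRP3, PYCARD, CASP1, TNFAIP6 and IER3. They were chosen by name, and all 9 are listed among the 16726 genes of the study. Poly(A) RNA was sequenced in 8 libraries, 2 in each of 4 groups, from NB4 and MM6, both established human acute myeloid leukaemia lines; the first is known as promyelocytic and the second, MonoMac 6, as monocytic, although the labels name acute monocytic leukemia for each. In each line the knockdown group carried a lentiviral pLKO.1 hairpin against METTL14 (shM14-#2, here shM14) and the control group carried a scramble, non-specific hairpin (shNS). All 4 groups had been transduced and then selected with 0.5 µg/mL puromycin for 2 passages, so the controls share the vector and the drug. METTL14 was targeted with 1 hairpin, each line is 1 model, and the labels do not say whether the libraries of a group came from separate cultures, so a p-value here weighs the change against library spread that may be technical. The question of the study was which transcripts change when METTL14, a subunit of the methyltransferase that places N6-methyladenosine (m6A) on messenger RNA, is lowered.

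IL-1β is made as a precursor in the cytosol and is cut to its active form by caspase-1, the product of CASP1. Caspase-1 is activated on inflammasomes, in which a sensor such as NLRP3 recruits the adaptor ASC, the product of PYCARD. IL18 encodes a related cytokine that caspase-1 also cuts, and IL1RN encodes a receptor antagonist that occupies the IL-1 receptor without signalling. TNF encodes a membrane-bound cytokine that is shed by a protease, and TNFAIP6 and IER3 are known as genes that TNF and IL-1 induce. In monocytes these cytokine messages are known to be short-lived, and AU-rich elements in their 3′ untranslated regions are known to recruit decay factors such as ZFP36.

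The 3 genes that were higher in the common test of both lines (IL1B, TNF and TNFAIP6) are shown here by the start of the gene and by an AU-rich stretch of the message, because these are the parts of a cytokine gene best known for control. Promoter entries from RefSeq (GRCh38.p14) matched 6 of the 9 genes. The windows below hold the 250 bases before the RefSeq start site, 5′ to 3′ on the gene's strand, at chr2:112836780-112837029 (minus strand) for IL1B, chr6:31575315-31575564 (plus strand) for TNF and chr2:151357342-151357591 (plus strand) for TNFAIP6. Capitals mark matches to GGGNNNNNCC (κB-type, both strands), TGANTCA (AP-1-type, both strands) and TATAAA (gene strand).
IL1B: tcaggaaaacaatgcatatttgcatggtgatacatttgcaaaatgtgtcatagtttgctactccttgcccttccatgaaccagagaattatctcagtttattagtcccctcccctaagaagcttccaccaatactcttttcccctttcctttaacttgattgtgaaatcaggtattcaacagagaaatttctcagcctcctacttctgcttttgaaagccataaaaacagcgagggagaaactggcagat
TNF: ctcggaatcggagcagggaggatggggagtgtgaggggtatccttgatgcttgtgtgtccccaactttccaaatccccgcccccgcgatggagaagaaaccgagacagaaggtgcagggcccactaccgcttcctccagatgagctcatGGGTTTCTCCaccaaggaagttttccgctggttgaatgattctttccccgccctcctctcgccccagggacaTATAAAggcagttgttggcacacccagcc
TNFAIP6: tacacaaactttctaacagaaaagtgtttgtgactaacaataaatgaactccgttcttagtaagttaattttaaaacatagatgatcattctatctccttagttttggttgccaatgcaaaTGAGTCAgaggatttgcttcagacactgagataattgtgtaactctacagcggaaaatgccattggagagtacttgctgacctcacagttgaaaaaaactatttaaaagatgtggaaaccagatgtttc
The TNF window held 1 κB-type match (GGGTTTCTCC, starting 101 bases before the start site) and a TATAAA 29 bases before it. The TNFAIP6 window held 1 AP-1-type match (TGAGTCA, 129 bases before the start site), and the IL1B window held none of the 3 letter patterns. Over 35116 windows of the same length, 54.4% held a κB-type match, 6.57% an AP-1-type match and 6.80% a TATAAA, so the κB-type match in TNF is of a common kind. The NLRP3 window had the same pair of patterns as TNF (κB-type at 183 bases, TATAAA at 29), PYCARD had 4 κB-type matches, and the 3 windows of IL1RN had 4 κB-type matches, 1 AP-1-type match and 1 TATAAA between them; no matches overlapped. A match is a description of letters and not a measured binding site.

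AU-rich letters were counted in the 3′ untranslated region of the GENCODE 29 transcript with the longest coding part. The stretches of 30 bases richest in the pentamer ATTTA follow, with the pentamers in capitals.
IL1B (bases 329 to 358 of the 3′ region): tgagcaaccgcttccctATTTATTTATTTA
TNF (bases 462 to 491): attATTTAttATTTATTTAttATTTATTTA
TNFAIP6 (bases 63 to 92): gatctcactgttattattaacATTTATTTA
The nonamer TTATTTATT, a core sequence of AU-rich elements, occurred 5 times in the 799 bases of TNF, 2 times in the 610 bases of IL1B and 1 time in the 515 bases of TNFAIP6, counting overlapping copies. It was absent from the other 6 genes, although IER3 had 6 single ATTTA pentamers in 737 bases, as many as IL1B. Among 13642 genes, 7.84% had the nonamer at least once; among 3′ regions within 10% of the same length the share was 5.77% of 763 for TNF, 3.97% of 705 for IL1B and 2.18% of 687 for TNFAIP6. As many copies as in TNF were found in 0.262% of such regions, and as many as in IL1B in 0.709%. The pentamer GGACT, a frequent form of the m6A consensus, occurred at 2.45 per kb of message in IL1B, 0.597 in TNF and 0 in TNFAIP6, against a median of 0.955 over the 13642 genes; it stood at 3.31 in IL1RN, 3.22 in IER3 and 2.40 in NLRP3. These are letters in the sequence, and m6A itself was not analysed here.

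Depth was 23272126 to 28814911 reads per library on listed genes. METTL14 itself went from 14.1 and 12.5 RPKM (reads scaled to gene length and library size) to 8.35 and 8.35 in NB4, and from 12.5 and 13.4 to 6.54 and 6.55 in MM6, so it was lower in all 4 shM14 libraries than in the controls of their line and was not lost. The summed RPKM of 12 monocyte markers, all found, was 58.5 to 62.4 in NB4 controls and 153 to 155 in NB4 shM14; 7 of 9 tested markers rose (22.1% of all genes did in NB4, and 25.2% fell). In MM6 it was 10289 to 15635 in controls, where FCN1 is listed at 0, and 16326 to 26359 in shM14. None of 11 markers tested in MM6 passed (0.0757% of all genes did), with a median log2 change of 0.90. In a model of both lines, which uses the same NB4 libraries, 8 of 12 rose and 0 fell (4.8% and 7.1% of all genes did). LYZ led the monocyte sum, with means of 20.6 and 84.0 RPKM in NB4 controls and shM14, and 7521 and 11233 in MM6. The summed RPKM of 6 promyelocyte granule markers went from 2584–2685 to 2332–2375 in NB4 (1 rose and 4 fell) and was 4368–4552 and 4637–5022 in MM6. MPO led it in NB4 (means of 2445 and 2135) and ELANE in MM6 (1654 and 2342). Of markers of other cells, 2 of 5 T cell genes were found, with CD3D at 45.9 RPKM in NB4 controls and 59.5 in NB4 shM14 but the list at or below 0.185 in every MM6 library, and the 2 erythroid genes found (of 5) stayed at or below 0.617 in sum. The 4 B cell genes found (of 5) summed to 12.2–13.3 RPKM in NB4 controls and 10.2–12.4 in NB4 shM14, and to 6.06–6.25 and 4.15–4.49 in MM6, with CD79B the highest throughout. The 4 fibroblast and epithelial genes found (of 6) summed to 16.9–17.1 and 13.9–15.6 in NB4 and to 12.6–12.9 and 7.68–9.63 in MM6, led by EPCAM in NB4 and KRT18 in MM6. The part of these markers in the results below was not tested. In bulk RNA, a change in the number of cells of a kind and a change in RNA per cell cannot be told apart.

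Of the 9 genes, 8 passed the filter (1 RPKM or more in 2 or more libraries), and all 8 had 1.26 RPKM or more in every library. In NB4, 4 of these 8 rose with shM14 (IL1B, TNF, TNFAIP6 and IER3), 1 fell (IL1RN) and 3 did not pass (NLRP3, PYCARD and CASP1). Among all genes tested in NB4, 22.1% rose and 25.2% fell (47.4% together), so a call by itself is common in that line. The median log2 change was 0.47 over the 8 genes and -0.01 over all genes. In MM6, none of the 8 passed (limma, adjusted p of 0.05), where 0.0504% of all genes rose and 0.0252% fell (0.0757% together); 2 of the 8 had an unadjusted p under 0.05, and a count model (voom) called 0. The targeted METTL14 was not called in that limma fit either, so a missing call in MM6 does not show a missing change. In a model of both lines, IL1B, TNF and TNFAIP6 rose and 5 did not pass, against 4.8% of all genes rising and 7.1% falling (11.9% together). That model uses the same NB4 libraries, so it is no second source of evidence for them. No gene of the 8 passed the interaction test for a different change between the lines (2.92% of all genes did, 1.53% with a higher and 1.39% with a lower value in MM6), with 1 at an unadjusted p under 0.05 and 0 by voom. The intervals of IL1B and IER3 were wide, so a missing call does not show an equal change.

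**Figure D1:**
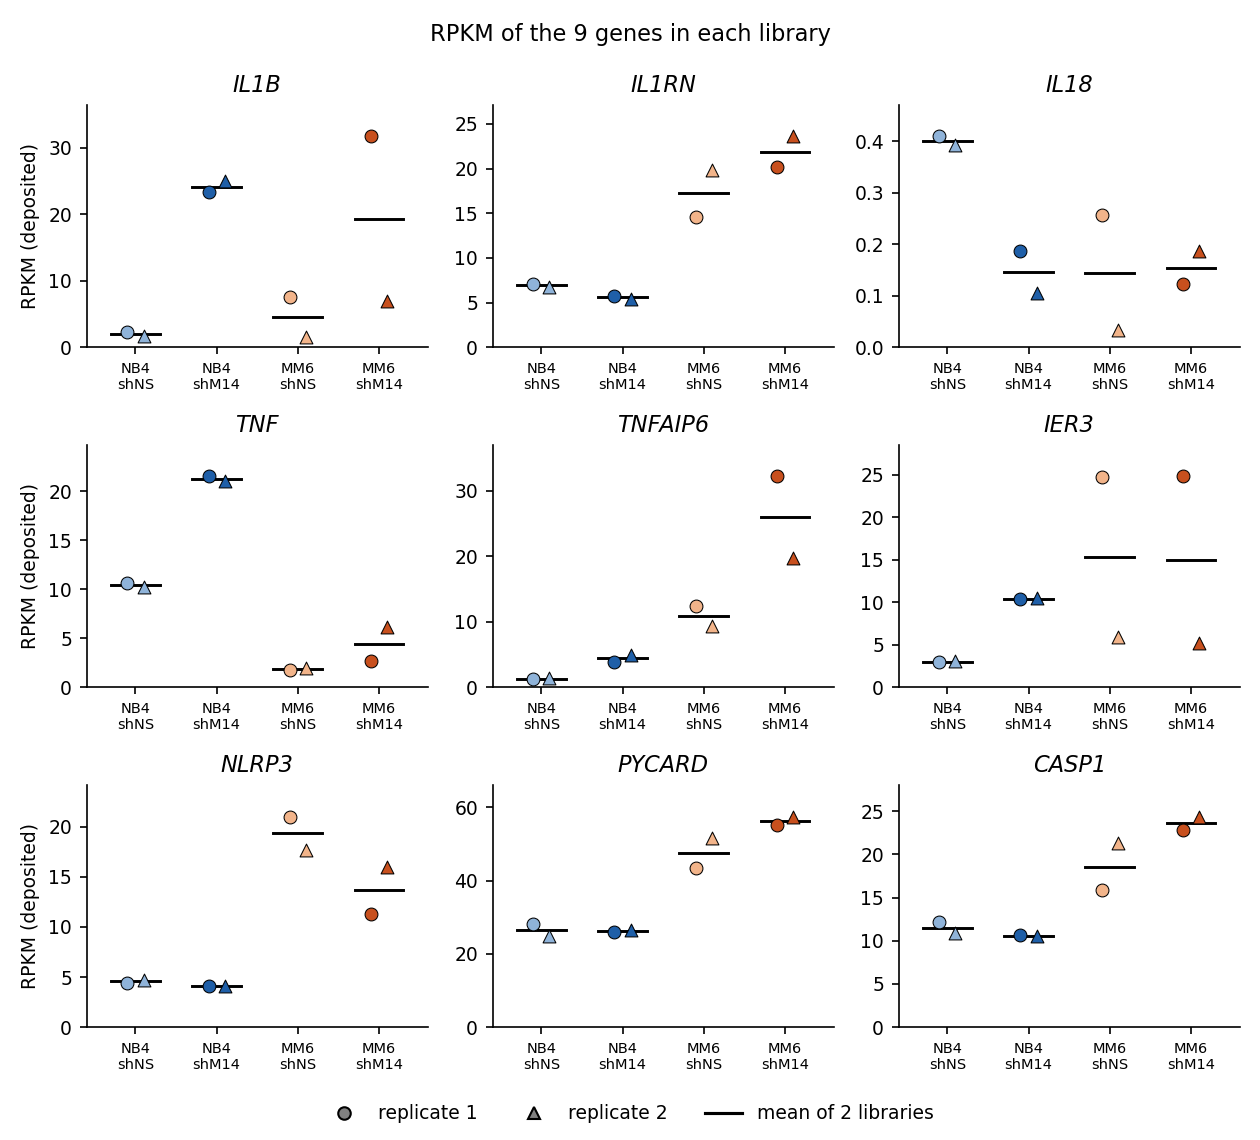
Deposited RPKM of the 9 genes in each of the 8 libraries; circles are replicate 1, triangles replicate 2, and bars the mean of the 2 libraries of a group, on a scale of its own for each gene. IL1B, TNF, TNFAIP6 and IER3 stand higher in both NB4 shM14 libraries than in both NB4 controls, and the 2 libraries of each MM6 group lie far apart for IL1B and IER3.

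IL1B (gene 3553, chr2:112829751-112836903 in GRCh38), the pro-inflammatory cytokine gene, had the largest change of the 9. It was at 2.22 and 1.62 RPKM in the NB4 controls and at 23.3 and 25.0 in NB4 shM14. The pairs of libraries are close to each other and far from the other group, which is 12.6-fold higher (1.92 ± 0.426 to 24.1 ± 1.23, SD, n = 2 each). On the log2(RPKM + 1) scale used for all tests the rise was 3.11 (SE 0.11, adjusted p = 1.8e-04). In MM6 the controls were at 7.54 and 1.51 RPKM and the shM14 libraries at 31.7 and 6.97. The groups overlap: the lower shM14 library lies below the higher control. Between MM6 libraries of the same number, shM14 was 4.20 and 4.61 times the control, although the labels give no pairing. The mean was 4.27-fold higher with an SD nearly as large as the mean (4.52 ± 4.26 and 19.3 ± 17.5, SD, n = 2 each), and the log2 change of 1.80 (SE 0.82) had an adjusted p of 0.39. The authors' deposited table gives IL1B a log2 fold change of 3.70 in NB4 and of 2.16 in MM6, with an adjusted p of 0.069 in the latter.

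For IL1B over both lines the log2 change was 2.46 (SE 0.53, adjusted p = 0.024), positive under each of the 15 alternatives and past the threshold in 9. It lost the call without any single NB4 library (adjusted p of 0.075 to 0.077), without MM6 shM14 replicate 1 (0.0589) or without MM6 shNS replicate 2 (0.0587). The MM6 change minus the NB4 change was -1.31 (95% interval -3.80 to 1.18, adjusted p = 0.56), an interval too wide to say whether the lines respond alike. A difference in IL1B between control MM6 and control NB4 was not shown (limma, 0.67, 95% interval -1.09 to 2.43, adjusted p = 0.44).

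TNF (gene 7124, chr6:31575567-31578336) encodes the other main cytokine of the group. In NB4 it went from 10.7 and 10.2 RPKM to 21.5 and 21.0. Both libraries of each group were nearly equal, and the 2.03-fold higher mean (10.5 ± 0.315 to 21.3 ± 0.347, SD, n = 2 each) gave a log2 rise of 0.96 (SE 0.05, adjusted p = 4.3e-04). With the spread estimated over all 8 libraries the NB4 change did not pass (adjusted p = 0.066). In MM6 the controls were at 1.73 and 1.92 RPKM and the shM14 libraries at 2.67 and 6.18. Both shM14 values lie above both controls but differ from each other, and the mean was 2.43-fold higher. The log2(RPKM + 1) change of 0.86 (SE 0.32), a scale that understates changes at low RPKM, had an adjusted p of 0.31. The authors' deposited table gives TNF a log2 fold change of 1.29 in MM6 with an adjusted p of 0.0045, and 1.05 in NB4.

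Over both lines TNF rose by 0.91 (SE 0.18, adjusted p = 0.018), a call that was lost without any single NB4 library (adjusted p of 0.0589 to 0.0603). The difference between the lines was -0.09 (95% interval -1.02 to 0.83, adjusted p = 0.93), and without MM6 shM14 replicate 2, the higher of that group, it was -0.58 with an adjusted p of 0.044. TNF was the gene of the 8 that was lower in control MM6 than in control NB4 (-2.02, adjusted p = 5.1e-04).

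IL18 (gene 3606, chr11:112143251-112164117), the other cytokine that caspase-1 processes, was nearly silent in both lines and was not tested. The NB4 controls had 0.410 and 0.393 RPKM (11 and 13 reads) and NB4 shM14 0.187 and 0.105 (6 and 3 reads). MM6 had 0.256 and 0.0335 RPKM (7 and 1 reads) in controls and 0.122 and 0.187 (4 and 5 reads) with shM14. NB4 shM14 lies below the NB4 controls, and the MM6 groups overlap. The authors' deposited table gives the NB4 difference a log2 fold change of -1.38 with an adjusted p of 0.0498, a value that rests on 33 reads in 4 libraries; without a filter it was also called in NB4 here.

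IL1RN (gene 3557, chr2:113111116-113134016), the receptor antagonist, fell in NB4, where IL1B rose. It went from 7.12 and 6.73 RPKM to 5.73 and 5.43, a log2 change of -0.27 (SE 0.05, adjusted p = 0.013). This small change did not pass without NB4 shM14 replicate 2 (adjusted p = 0.080) or with the spread of all 8 libraries (0.28). In MM6 it was at 14.6 and 19.9 RPKM in controls and at 20.2 and 23.6 with shM14, above both controls by a narrow margin (0.34, adjusted p = 0.50). The change differed between lines by 0.61 (SE 0.21) with an adjusted p of 0.18. In NB4 the level of IL1B relative to its antagonist therefore went from below to above: 1.77 against 6.49 RPKM in controls and 22.2 against 5.23 with shM14, both per base of annotated exon.

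The inflammasome components were steadier than IL1B in NB4. NLRP3 (gene 114548, chr1:247416156-247449108), the sensor, was at 4.43 and 4.74 RPKM in NB4 controls and 4.10 and 4.13 in NB4 shM14 (-0.13, adjusted p = 0.097). In MM6 it was at 21.0 and 17.7 in controls and 11.3 and 16.0 in shM14 (-0.49, adjusted p = 0.35). All 4 shM14 libraries lie below the controls of their line, yet the change over both lines of -0.31 (SE 0.13) had an adjusted p of 0.15. PYCARD (gene 29108, chr16:31201485-31202992), the adaptor, was at 28.1 and 25.0 RPKM in NB4 controls and 25.9 and 26.6 in shM14, values that overlap (-0.01, adjusted p = 0.90; 0.02 under median-of-ratios scaling). In MM6 it was at 43.5 and 51.8, and at 55.1 and 57.5 with shM14 (0.24, adjusted p = 0.54).

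CASP1 (gene 834, chr11:105025508-105035250), the protease, was at 12.2 and 10.9 RPKM in NB4 controls and 10.6 and 10.5 in NB4 shM14 (-0.11, adjusted p = 0.22; called, at 0.048, without NB4 shNS replicate 2). In MM6 it went the other way, from 15.8 and 21.3 to 22.8 and 24.4 (0.34, adjusted p = 0.45), and the difference between lines of 0.45 had an adjusted p of 0.27. CASP1 has close copies next to it (CARD16 and CARD17), so its reads are less certain. The 95% intervals of the 3 components lay within -0.27 and 0.16 in NB4, against a rise of IL1B of 2.84 to 3.39. In MM6 they lay within -0.995 and 0.790, and the IL1B interval of -0.26 to 3.86 overlaps that range. A steadier level of the components is therefore not shown in MM6.

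TNFAIP6 (gene 7130, chr2:151357592-151380048) encodes TSG-6, a secreted protein that binds hyaluronan. It went from 1.26 and 1.36 RPKM to 3.91 and 4.87 in NB4, 3.35-fold, a log2 rise of 1.22 (SE 0.09, adjusted p = 0.0010). In MM6 it was at 12.4 and 9.30 RPKM in controls and at 32.2 and 19.8 with shM14, groups that do not overlap. The MM6 mean was 2.39-fold higher (10.9 ± 2.20 and 26.0 ± 8.77, SD, n = 2 each), with a log2 change of 1.16 (SE 0.27), an unadjusted p of 0.0059 and an adjusted p of 0.16. With the spread taken from all 8 libraries it passed in MM6 as well (adjusted p = 0.027), and in the authors' deposited table the MM6 adjusted p is 0.0026. Over both lines the rise was 1.19 (SE 0.15, adjusted p = 0.0049), and of the 3 genes called there TNFAIP6 alone kept its call under all 15 alternatives, with adjusted p-values up to 0.024. The changes in the lines differed by -0.06 (95% interval -0.84 to 0.73).

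IER3 (gene 8870, chr6:30743199-30744554), an immediate early gene that acts in cell survival, was at 2.96 and 3.05 RPKM in NB4 controls and at 10.3 and 10.5 in NB4 shM14. The NB4 groups were tight and 3.46-fold apart, a log2 rise of 1.51 (SE 0.05, adjusted p = 1.5e-04), which did not pass with the spread of all 8 libraries (adjusted p = 0.25). In MM6 the controls were at 24.7 and 5.93 RPKM and the shM14 libraries at 24.8 and 5.19. The MM6 means were the same within 3% (0.977 of the control), each with an SD close to the mean, and the log2 change was -0.08 (SE 0.85, adjusted p = 0.99). Leaving out single MM6 libraries moved it between -1.11 and 0.95. The change over both lines was 0.72 (adjusted p = 0.44) and the difference between lines -1.59 (95% interval -4.15 to 0.97, adjusted p = 0.49).

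**Figure D2:**
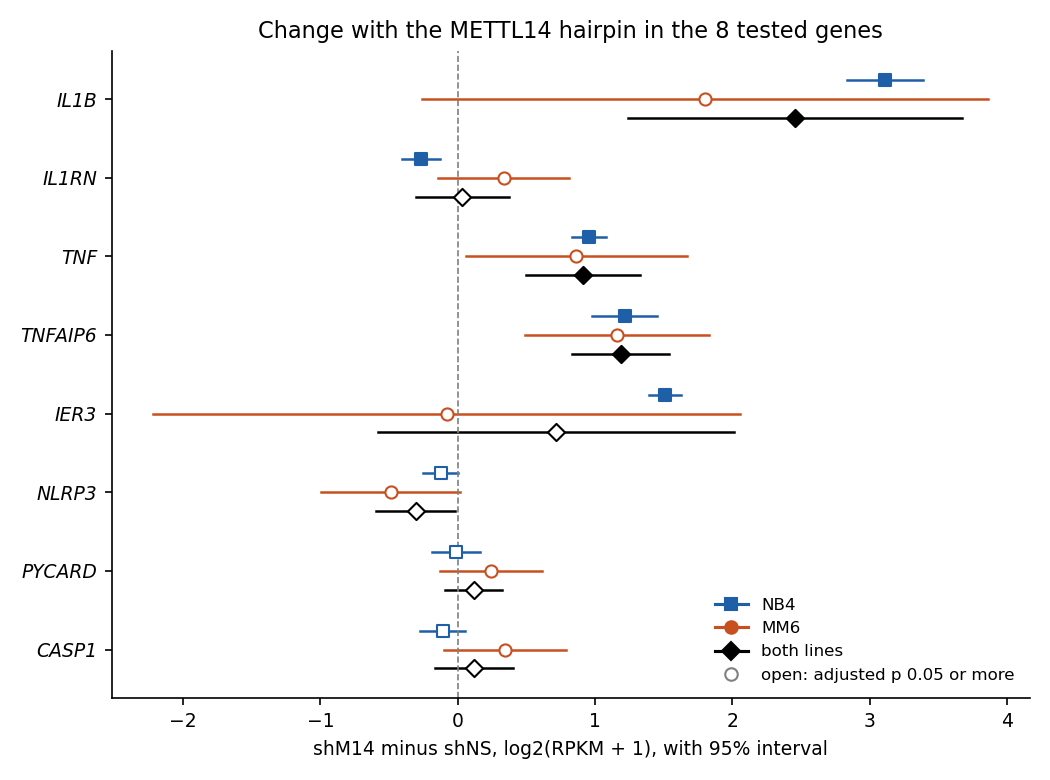
Change of the 8 tested genes with shM14, as a difference in log2(RPKM + 1) with its 95% interval from limma, in NB4 (squares), MM6 (circles) and both lines (diamonds); filled symbols have an adjusted p under 0.05. IL1B, TNF and TNFAIP6 are filled in NB4 and in both lines together, no MM6 symbol is filled, and the MM6 intervals of IL1B and IER3 are the widest.

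The groups of libraries did not overlap for 8 of the 9 genes in NB4, with 4 higher and 4 lower in shM14; among all genes 37.2% were higher and 40.0% lower in this sense. In MM6, 5 genes were higher without overlap (IL1RN, CASP1, PYCARD, TNF and TNFAIP6) and NLRP3 was lower, against 19.0% and 25.8% of all genes. IL1B, IL18 and IER3 overlapped in MM6.

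The spread of IL1B and IER3 within the MM6 groups was unusual. On the log2 scale the 2 MM6 controls differed by 1.76 in IL1B, the 63rd largest difference of 11895 genes, and by 1.89 in IER3, the 54th largest; the median gene differed by 0.169. The 2 MM6 shM14 libraries differed by 2.04 in IL1B, the 51st largest, and by 2.06 in IER3, the 50th largest, with a median of 0.197. In both groups the library labelled replicate 1 was the higher for both genes: 4.99 times for IL1B and 4.17 times for IER3 in controls, 4.55 and 4.77 times in shM14. The labels do not say that libraries with the same number share a culture or a day. TNF had its own pattern, with replicate 2 the higher shM14 library (a difference of 0.97, the 259th largest). In NB4 the control libraries differed by 0.30 in IL1B and 0.03 in IER3.

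**Figure D3:**
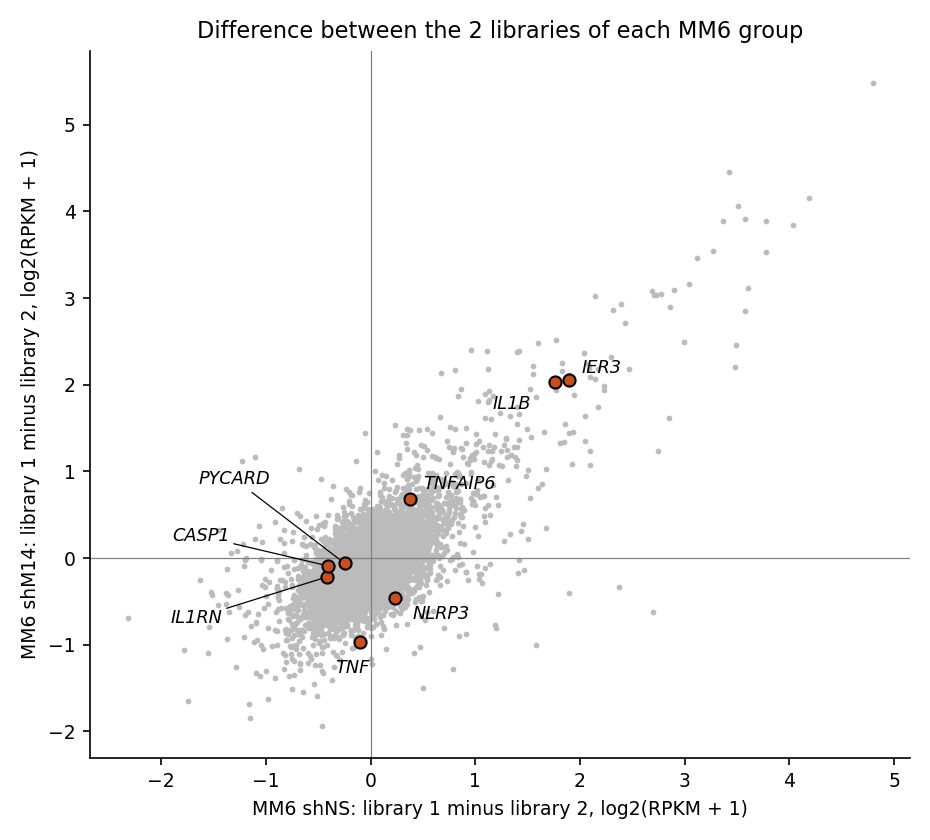
Difference between library 1 and library 2 of the MM6 controls (x axis) and of MM6 shM14 (y axis) in log2(RPKM + 1); grey points are the 11895 genes tested in MM6 and orange points the 8 genes. IL1B and IER3 lie at about 2 on both axes, beyond nearly all grey points, and TNF is low on the y axis only.

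Without the METTL14 hairpin, the lines differed in 6 of the 8 genes (71.1% of all genes differed). NLRP3, IL1RN, PYCARD, CASP1 and TNFAIP6 were higher in control MM6 (34.5% of all genes were) and TNF was lower (36.7%). The largest of the higher genes were TNFAIP6 at 2.35 (adjusted p = 1.1e-04) and NLRP3 at 1.86 (adjusted p = 5.5e-05), with IL1RN at 1.19, PYCARD at 0.82 and CASP1 at 0.63. TNF stood at -2.02 (adjusted p = 5.1e-04). IER3 was 1.74 higher with an adjusted p of 0.078. Control MM6 thus held more message for NLRP3, PYCARD and CASP1, while IL1B was not shown to differ. Of the 21 tested genes of the wider inflammasome list described below, 8 were higher and 8 lower in control MM6.

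Levels of different genes can be set side by side only per length, and the deposited RPKM of TNF and IER3 rest on unusual lengths. The length that each RPKM implies was worked out from the recovered reads: 13043 bases for TNF and 7441 for IER3, against 1676 and 1356 bases of exon in GENCODE 29. Their deposited values are therefore 7.78 and 5.49 times lower than values per annotated exon would be, if all recovered reads came from those exons. That was not tested. The other 7 genes had ratios of 0.781 to 1.26. Over 15289 genes the median ratio was 0.999, and 262 genes had a ratio of 3 or more, of which 137 lay on chromosome 6 between 28 and 34 Mb, where TNF and IER3 are; the cause was not tested. Fold changes within a gene do not depend on this length, but the log2(RPKM + 1) scale understates changes of genes whose RPKM is low.

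**Figure D4:**
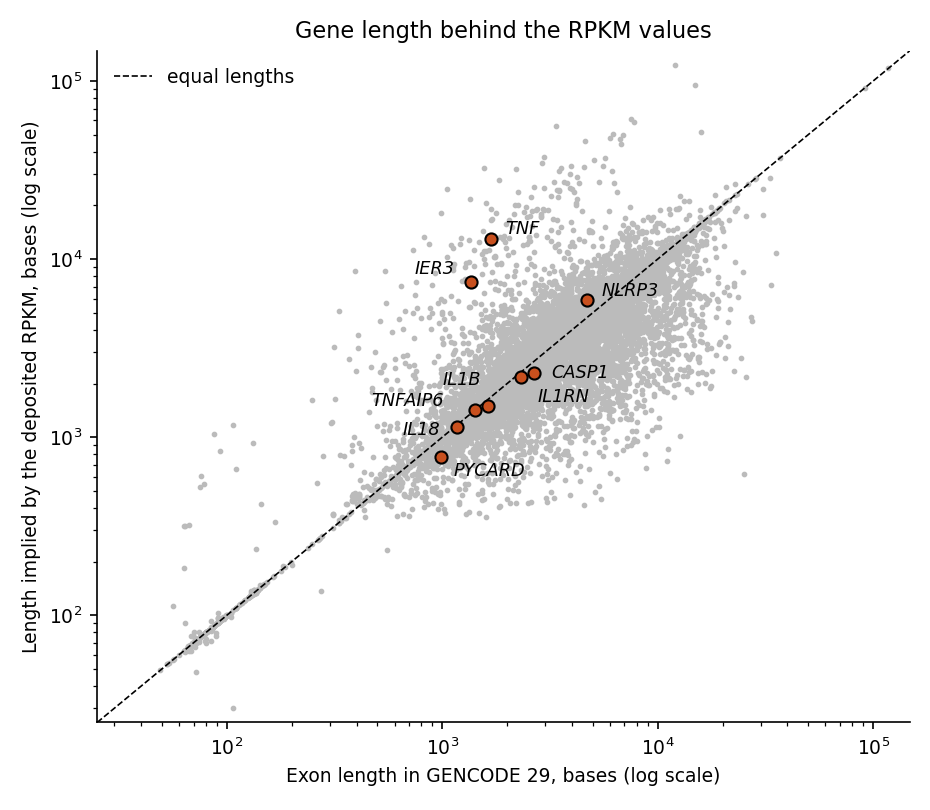
Exon length in GENCODE 29 (x axis) against the length implied by the deposited RPKM (y axis), in bases on log scales; each grey point is a gene, orange points are the 9 genes and the dashed line marks equal lengths. TNF and IER3 lie far above the line and the other 7 genes close to it.

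Rescaled to annotated exon length, TNF had the highest value of the 9 genes in NB4 controls at 81.4 ± 2.45 RPKM. It was followed by PYCARD at 20.7 ± 1.72, IER3 at 16.5 ± 0.362 and CASP1 at 9.83 ± 0.790 (SD, n = 2 each). IL1RN (6.49), NLRP3 (5.77), IL1B (1.77), TNFAIP6 (1.31) and IL18 (0.394) were lower. With shM14 in NB4, TNF stood at 165 ± 2.70, IER3 at 57.1 ± 0.534 and IL1B at 22.2 ± 1.13, so that IL1B moved past CASP1, IL1RN and NLRP3 to the level of PYCARD (20.5 ± 0.414). In MM6 controls IER3 was at 84.1 ± 72.9 and PYCARD at 37.2 ± 4.58, which do not differ beyond their spread. NLRP3 was at 24.3 ± 2.98 there, and IL1RN (16.2 ± 3.47), CASP1 (15.9 ± 3.29) and TNF (14.2 ± 1.03) could not be ordered within their spread. TNFAIP6 (10.9 ± 2.20), IL1B (4.16 ± 3.91) and IL18 (0.142 ± 0.155) were at the lower end. In MM6 shM14 the rescaled means were 34.4 ± 19.3 for TNF, 26.0 ± 8.78 for TNFAIP6 and 17.8 ± 16.1 for IL1B. The places of TNF and IER3 in every group depend on the rescaling, whose basis was not tested for them. On the deposited scale TNF in NB4 controls (10.7 and 10.2 RPKM) stood below PYCARD (28.1 and 25.0) and CASP1 (12.2 and 10.9). IER3 (2.96 and 3.05) stood below NLRP3 (4.43 and 4.74) there.

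The genes whose log2(RPKM + 1) followed IL1B most closely over the 8 libraries, among 12803 compared, were THBS1 (Pearson r = 0.99), TNFRSF10B (0.99), LCOR (0.98), SOD2 (0.98) and PLEKHB2 (0.97). THBS1, the thrombospondin-1 gene, had 3.62 and 3.31 RPKM in NB4 controls, 62.7 and 63.5 in NB4 shM14, 10.4 and 2.90 in MM6 controls and 84.3 and 17.3 in MM6 shM14. It shares with IL1B the higher value of replicate 1 in both MM6 groups. SOD2, the mitochondrial superoxide dismutase gene, had 36.0 and 36.7, 86.9 and 82.2, 47.9 and 30.2, and 120.9 and 54.0 RPKM in the same order. Of the 9 genes, IER3 was nearest to IL1B (r = 0.73, rank 260), then TNFAIP6 (0.46) and TNF (0.26), while PYCARD, CASP1, IL1RN and NLRP3 lay between -0.15 and 0.03. These values describe 8 libraries of 4 groups and share line, hairpin and library among the points.

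Other genes of the pathways were taken from 4 lists, whose counts stand against 22.1% of all genes rising and 25.2% falling in NB4, and 4.8% and 7.1% over both lines. Among TNF- and IL-1-induced secreted and surface genes, 8 of 10 tested rose in NB4 and none fell (CXCL2, CXCL3, CXCL8, ICAM1, PLAUR, PTX3, CCL2 and SOD2), with a median change of 1.13 against -0.01 for all genes. In MM6 none of 15 passed, with a median of 0.90, and over both lines 5 of 15 rose (CXCL1, IL6, PTX3, CCL2 and SOD2). CCL2, a monocyte-attracting chemokine, went from 6.18 and 5.90 to 28.7 and 27.3 RPKM in NB4 and from 1.63 and 0.565 to 12.6 and 6.44 in MM6, where the groups do not overlap; the common rise was 2.18 (adjusted p = 0.0027). PTX3, a secreted pattern-recognition protein, went from 5.71 and 6.30 to 13.1 and 14.4 in NB4 and from 3.81 and 2.40 to 25.5 and 10.9 in MM6 (common rise 1.60, adjusted p = 0.014). SOD2 rose by 1.13 (adjusted p = 0.023), and CXCL1 by 0.94 (adjusted p = 0.019), a gene listed at 0 in both NB4 controls. CCL2 and PTX3 kept their call under all 15 alternatives, SOD2 lost it without any single NB4 library or MM6 shNS replicate 2 (highest adjusted p 0.071), and CXCL1 without NB4 shM14 replicate 2 (0.052). Without either NB4 shM14 library the NB4 count was 5, and with the spread of all 8 libraries 2; the common count was 3 without any single NB4 library or MM6 shNS replicate 2.

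Among inflammasome sensors, caspases, regulators and pyroptosis genes, 1 of 18 tested rose in NB4 (NINJ1) and 10 fell, with a median of -0.22 (22.1% of all genes rose and 25.2% fell). Those that fell were the sensors NLRP1, NAIP, AIM2 and IFI16, the caspase gene CASP4, the pore-forming GSDMD, and TXNIP, NEK7, SERPINB1 and CARD8. In MM6 none of 21 passed, and over both lines 0 rose and 2 of 21 fell. IFI16, a DNA sensor, went from 82.4 and 80.4 to 48.3 and 46.5 RPKM in NB4 and from 85.6 and 96.9 to 81.7 and 64.8 in MM6 (-0.54 in common, adjusted p = 0.024). GSDMD, whose product forms the pore through which IL-1β leaves the cell, went from 9.06 and 9.70 to 5.48 and 6.14 in NB4 and from 17.8 and 24.7 to 11.1 and 15.8 in MM6 (-0.62, adjusted p = 0.023). CASP4, the sensor of cytosolic lipopolysaccharide, stood at -0.45 (adjusted p = 0.052) and CARD8, an inflammasome sensor and regulator, at -0.26 (0.061). Without any single NB4 library neither IFI16 nor GSDMD passed in common (adjusted p up to 0.083 and 0.076). The NB4 count was 7 without NB4 shM14 replicate 1 and 4 with the spread of all 8 libraries.

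Among IL-1 family receptors, adaptors and inhibitors, 6 of 16 tested rose in NB4 (IRAK1, IRAK2, IRAK3, TOLLIP, IL18R1 and IL18RAP) and 6 fell (IL1RAP, MYD88, IRAK4, TAB1, TAB3 and SIGIRR), with a median of 0.02, against 22.1% and 25.2% of all genes. IL18R1 and IL18RAP reached the filter only through the NB4 shM14 libraries, where they are high, so their rise is no support. Over both lines 1 of 16 rose and 3 fell. SIGIRR, an inhibitory receptor, fell by 0.46 (adjusted p = 0.0097), from 6.83 and 7.26 to 4.45 and 4.99 RPKM in NB4 and from 8.48 and 7.51 to 5.33 and 6.06 in MM6. IRAK3, an inhibitory kinase-like protein, rose from a mean of 27.3 to 51.2 and 52.2 RPKM in NB4 and stood at 50.2 and 46.8 against 56.4 and 57.5 in MM6 (0.56 in common, adjusted p = 0.031). IL1RAP, the accessory chain that IL-1 receptor signalling needs, stood at 6.00 and 5.41 against 4.36 and 4.67 in NB4 and at 16.2 and 16.0 against 6.11 and 5.71 in MM6 (-0.79 in common, adjusted p = 0.033). TAB3 fell by 0.29 (adjusted p = 0.037). SIGIRR kept its common call under all 15 alternatives. When single libraries were left out, IRAK3 lost it without any of the NB4 libraries (adjusted p up to 0.098), IL1RAP without replicate 1 of either NB4 group or any single MM6 library (up to 0.077), and TAB3 without any single NB4 library or replicate 1 of either MM6 group (up to 0.13). The common count was 1 or 2 without any single NB4 library and 2 without MM6 shNS replicate 1, and the count in NB4 was 4 and 5 without NB4 shM14 replicate 1 and 2, and 5 with the spread of all 8 libraries.

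Among TNF processing genes, receptors and adaptors, 7 of 22 tested rose in NB4 (LTB, TNFAIP8, TNFRSF1B, ADAM17, LITAF, ZFP36 and ZFP36L1) and 6 fell (TRADD, RIPK1, TRAF5, MLKL, TNFAIP8L2 and ZFP36L2), with a median of 0.04, beside 22.1% and 25.2% of all genes. Over both lines 2 of 23 rose and 1 fell (4.8% and 7.1% of all genes), and these 3 kept their calls under all 15 alternatives. TNFRSF1B, the second TNF receptor, went from 9.83 and 10.3 to 15.5 and 17.3 RPKM in NB4 and from 32.2 and 25.6 to 79.5 and 56.3 in MM6 (0.92 in common, adjusted p = 0.010). LTB, the lymphotoxin-β gene beside TNF, went from 2.24 and 2.81 to 7.14 and 7.09 RPKM in NB4 and from 0.117 and 0.183 to 0.505 and 0.727 in MM6 (0.85, adjusted p = 0.012); its implied length was 7.95 times its annotated exon length. TRADD, the adaptor of the first TNF receptor, fell by 0.50 (adjusted p = 0.0063), from 6.80 and 6.84 to 4.58 and 4.30 in NB4 and from 4.02 and 4.61 to 2.60 and 3.01 in MM6. TRAF5 stood at -0.35 (adjusted p = 0.069). The NB4 count was 8 without NB4 shM14 replicate 2 and 2 with the spread of all 8 libraries, and the common count 5 without MM6 shNS replicate 1 and 7 without MM6 shM14 replicate 2.

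**Figure D5:**
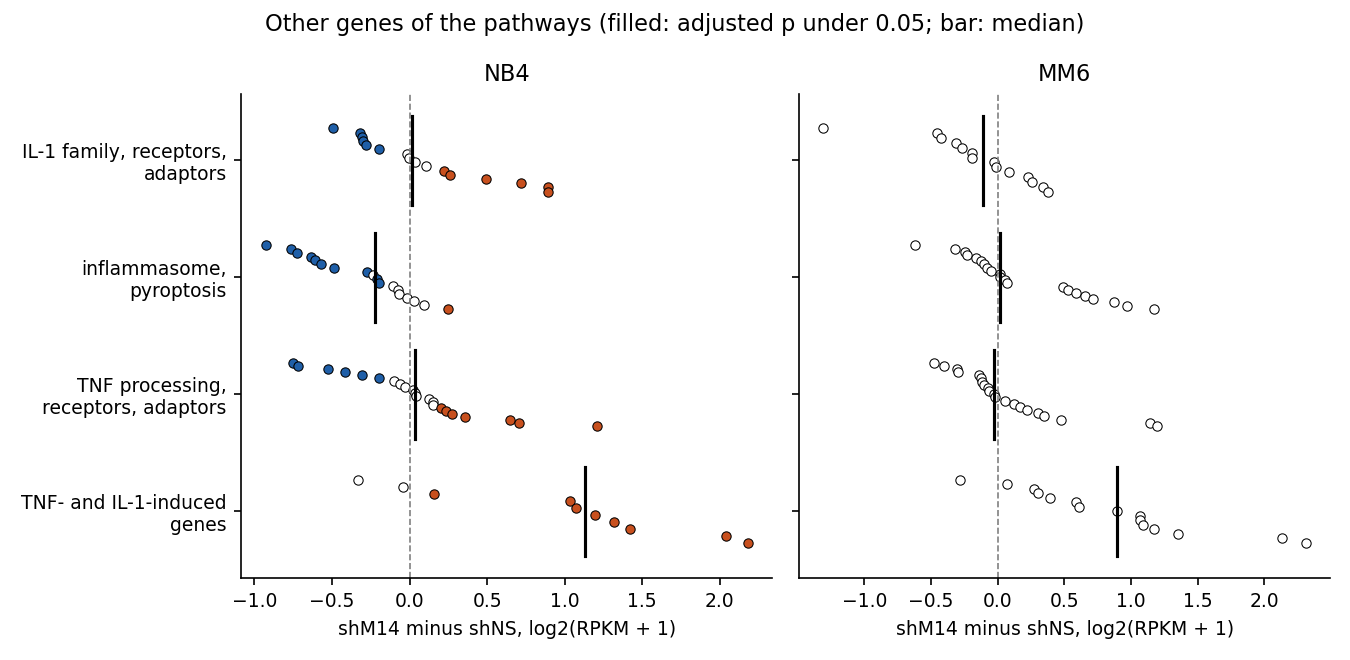
Change with shM14 in log2(RPKM + 1) of the tested genes of the 4 lists in NB4 (left) and MM6 (right); each point is a gene, filled where its adjusted p is under 0.05 (orange higher, blue lower), and bars are list medians. The induced genes have medians of 1.13 and 0.90, the other 3 lists have medians near 0 except the inflammasome list in NB4 at -0.22, and no MM6 point is filled.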

How the data were processed

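Single-end 50-bp reads were obtained from poly(A)-selected, directional libraries of NB4 and MM6, per the labels. Aligner, counter, genome build, strand setting and the authors' own test were not given in the sources used here, so values of overlapping genes and close copies are less certain. The authors deposited 1 table per line. It holds RPKM values per library, a unit worked out from the values, and, per the file headers, group means (the signal columns), their ratio as a fold change, its log2, and the authors' p-value with its adjusted value. Whole reads were recovered from the deposited RPKM and group means for 100% of values (within 0.01 of a whole number), which gave depth and the implied gene lengths; 27 genes have no symbol.

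The fit was limma 3.58.1 (R 4.3.3) on log2(RPKM + 1), for genes with 1 RPKM or more in 2 or more libraries, with two-sided tests and Benjamini-Hochberg adjustment over all of them (threshold 0.05). NB4 and MM6 were fitted separately for their own changes; the common effect, the interaction and the baseline used all 8 libraries. The method was tested on simulated data with independent libraries and a fixed spread for each line. That simulation did not cover library differences as large as those of IL1B and IER3 in MM6. The 9 genes, the lists and the alternatives were chosen with earlier results of these data known. From each list, up to 4 genes with the smallest p of the common effect are named with values, called genes are named besides, and for IL1B the 5 most correlated genes. Exon lengths and 3′ regions came from GENCODE 29 and promoter windows from RefSeq. Alternatives were a pseudocount of 0.1, no filter, a minimum of 5 RPKM, the replicate number as a block, voom, all 8 libraries in 1 model and leaving out each library; median-of-ratios scaling and a variance trend were added after seeing the data. Voom on the recovered reads called 6325 genes in NB4 and 39 in MM6.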

Additional observations from a re-analysis of the deposited data

Results flagged for a closer look

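None of the 8 tested genes differed between the lines in its change with shM14, but 10 genes of the pathway lists did by the interaction test (MM6 change minus NB4 change, log2, limma, adjusted over all genes): 6 of 16 IL-1 family genes, 3 of 21 inflammasome genes, 1 of 15 induced genes and 0 of 23 TNF pathway genes tested, against 2.92% of all genes (1.53% higher and 1.39% lower in MM6). IL1RAP, the accessory chain of the IL-1 receptor, had -1.03 (adjusted p = 0.013), with -0.28 in NB4 and -1.31 in MM6. IRAK3 had -0.67 (adjusted p = 0.032), IRAK1 -0.68 (0.032) and IRAK2 -0.68 (0.031), kinase-like and kinase proteins of the same pathway that rose in NB4. The IL-18 receptor genes IL18R1 and IL18RAP had -0.90 (0.012) and -0.72 (0.047). Both reached the filter only through the NB4 shM14 libraries, where they are high, so their calls are no support. Of the inflammasome list, NLRP1 had 1.21 (0.012), MEFV 1.16 (0.029) and SERPINB1 0.95 (0.031), of which NLRP1 and SERPINB1 fell in NB4. ICAM1, an adhesion molecule, had -1.91 (0.012), with a rise of 2.18 in NB4 and a change of 0.27 in MM6. None of the 10 kept its call under every alternative. Their calls were lost when any single NB4 library was left out, which leaves 1 library in its group. Without either NB4 shM14 library, IL18R1 and IL18RAP were below the filter and not tested. Calls for the difference over all genes nearly vanished in the same fits, so the loss is not particular to these 10.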

How the results depend on the processing

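Of 1180 single-gene values recomputed under an alternative, 1025 kept their direction and their side of the threshold, 22 gained a call, 115 lost one and 18 changed sign. With all 8 libraries in 1 model, the NB4 count fell from 5 to 2 (IL1B and TNFAIP6 were called) and the MM6 count was 1 in place of 0. Labels give the groups the same replicate numbers but no pairing, so the numbers were not taken as pairs. Same-numbered libraries deviated together across genes in MM6 (r = 0.70) but hardly in NB4 (r = 0.08). What MM6 libraries of the same number share is not stated in the labels. With the replicate block, MM6 had 2 calls (IL1B, adjusted p = 0.0032, and TNFAIP6, 0.0069), the difference between lines 3 (IER3, IL1B and IL1RN), the common calls of IRAK3 (0.064), IL1RAP (0.070), TAB3 (0.0503) and IFI16 (0.0504) were lost, and all genes in MM6 1405 in place of 9. Without single libraries the counts ranged over 4 to 6 in NB4, 0 to 0 in MM6, 1 to 3 in common, 0 to 1 for the difference and 6 to 7 for the baseline. Signs changed for values near 0: PYCARD in NB4 (0.018 under median-of-ratios scaling; -0.093 to 0.071 without single libraries), IER3 in MM6 (-1.11 to 0.95), IL1RN and CASP1 in common (-0.11 to 0.11 and -0.0086 to 0.19), IL1B at baseline (-0.21 to 1.55), METTL14 at baseline (0.029 under median-of-ratios scaling; -0.11 to 0.048) and the differences between lines of TNF (0.10 with a pseudocount of 0.1, 0.11 by voom; -0.58 to 0.39) and TNFAIP6 (-0.39 to 0.28). Over all genes the count of calls was 5460 in NB4 and 1658 with all 8 libraries. In MM6 it was 9, against 0 with no filter, 4 with a minimum of 5 RPKM, 39 by voom, 1311 with all 8 libraries and 3 under median-of-ratios scaling. For the difference it was 374, against 203 with a pseudocount of 0.1, 1143 with the block and 207 by voom. The NB4 split of 2553 higher and 2907 lower was 2919 and 2599 under median-of-ratios scaling. Without any single NB4 library, calls over all genes fell as well for the common effect and for the difference between lines. Such a loss is thus not particular to the genes named here. Causes were not tested. With 2 libraries a group, MM6 spread limits what could be called there, and IL18 had too few reads to test.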
